A study of Mus musculus with 3 samples.

Results

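Hairpin RNAs A and B, aimed at the same messenger RNA, Tead4, were set against each other by the reads each gene drew in the 2 libraries. The cells were C2C12, myoblasts of mouse origin that stop dividing and fuse into multinucleate myotubes in low serum. Populations received a short hairpin RNA (shRNA) by lentivirus, were selected with puromycin and were then kept for 7 days in 2% horse serum. One population carried a control shRNA, one carried Tead4 shRNA A and one carried Tead4 shRNA B. The populations were selected pools, with 1 library each, and the labels describe no repeat culture of any of them. Genes entered when their raw count averaged at least 50 reads over the 3 libraries. That left 12016 of the 20162 genes in the table, and 12015 of them had a ratio of shRNA A to shRNA B. The remaining entry had 0 reads with both hairpins. The control library entered that minimum and the scaling of the libraries, and otherwise served only as a reference level. Genes with few reads under both hairpins could therefore enter through it, as Cth did with 197, 7 and 14 reads in control, shRNA A and shRNA B. Every ratio below compares 2 libraries and has no replicate check, and its 95% exact interval covers counting error only.

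Tead4 belongs to the TEAD family of DNA-binding factors, which act on their target genes together with cofactors such as YAP, TAZ and the VGLL proteins. TEAD factors bind the M-CAT element, whose core is found in the promoters of many muscle genes, and they act downstream of the Hippo kinases. An shRNA is cut by the cell into a small interfering RNA that guides cleavage of a matching messenger RNA. The small RNA can also pair with other transcripts, through its seed, so that hairpins of different sequence against the same target can differ in what else they reach. The hairpin sequences were not used here.

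Counted reads numbered 16412139 for the control, 19918954 for shRNA A and 15594305 for shRNA B. Levels are CPM, depth-scaled counts, on library sizes corrected by the TMM method of edgeR. One read was worth 0.0625 CPM in the control library, 0.0496 for hairpin A and 0.0633 for hairpin B. Markers of myotubes were abundant in all of them: Acta1, the skeletal actin, stood at 7066 CPM in the control library, 5320 under shRNA A and 6425 under shRNA B. Among markers of other lineages, Fabp4 of fat cells, Pecam1 of endothelium and Sp7 of bone had between 0 and 8 reads per library, and Cd68 of macrophages had 22 to 45. Genes of undifferentiated reserve cells were present with both hairpins. Cd34 had 10.5 CPM in the control library, 26.4 under shRNA A and 22.4 under shRNA B. Pax7 had 8.87, 14.1 and 13.5 CPM. Spry1 was highest with shRNA B, at 22.1, 41.6 and 58.4 CPM. Sdc4 had 217, 241 and 251 CPM, and Hey1 had 4.12, 3.67 and 3.93 CPM, slightly below the control level with both hairpins. These are bulk libraries, in which fewer cells of a type and less RNA per cell cannot be told apart.

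Tead4 itself was lower with both hairpins and lowest with shRNA B. It had 1256 reads in the control library, 397 under shRNA A and 170 under shRNA B, which is 78.5, 19.7 and 10.8 CPM. Against the control library the log2 ratio was -2.0 under shRNA A (95% exact interval -2.16 to -1.83) and -2.87 under shRNA B (-3.11 to -2.63). Between the hairpins the log2 ratio of A to B was 0.87 (0.61 to 1.14), so shRNA A left 1.83 times as much Tead4 message as shRNA B. The other 3 members of the family lay closer together. Tead1 had 53.5 CPM in the control library, 57.0 under shRNA A and 63.2 under shRNA B (log2 ratio of A to B -0.15, -0.27 to -0.03). Tead2 had 52.9, 37.8 and 31.2 CPM (0.28, 0.11 to 0.44). Tead3 had 28.1, 36.9 and 27.6 CPM (0.42, 0.25 to 0.59). Of the 16 TEAD factors, VGLL and YAP cofactors and Hippo kinases with a ratio, 10 were higher with shRNA A and 6 under shRNA B, and Tead4 alone was at least 1.5-fold apart.

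Most genes stood at nearly the same level with the 2 hairpins. Of the 12015 genes, 11001 (91.6%) lay within 1.5-fold, and the quartiles of the log2 ratios ran from -0.20 to 0.21 around a median of 0.00. At least 1.5-fold higher with shRNA A were 532 genes (4.43%), and 482 (4.01%) with shRNA B. At least 2-fold higher with shRNA A were 61 genes (0.508%), and 74 (0.616%) with shRNA B. The counting interval left out no change for 55.7% of all genes. It lay wholly past 2-fold for 14 of the 61 genes and 20 of the 74. A minimum of 200 reads left 11 and 27 genes, and adjustment for GC content and length gave 40 and 54. The share of genes 2-fold apart depended on read number. It was 5.52% (60 of 1086) among genes with a mean of 50 to 100 reads, where the interval was typically 0.98 wide on the log2 scale. Among genes with at least 1000 reads it was 0.215% (9 of 4177), with a typical interval of 0.18. In the plot of ratios against level, the 2-fold genes therefore crowd at the left. At the line, Glis3 (1.01) and Hspa1b (1.01) were the last genes inside on the shRNA A side, and Aebp1 at 1147 CPM with A and 573 CPM with B fell just outside. On the other side AL732519.3 and Slc7a7 (both -1.0) were inside, and Slc6a19 and the myoglobin gene Mb (-0.99) outside.

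**Figure D1:**
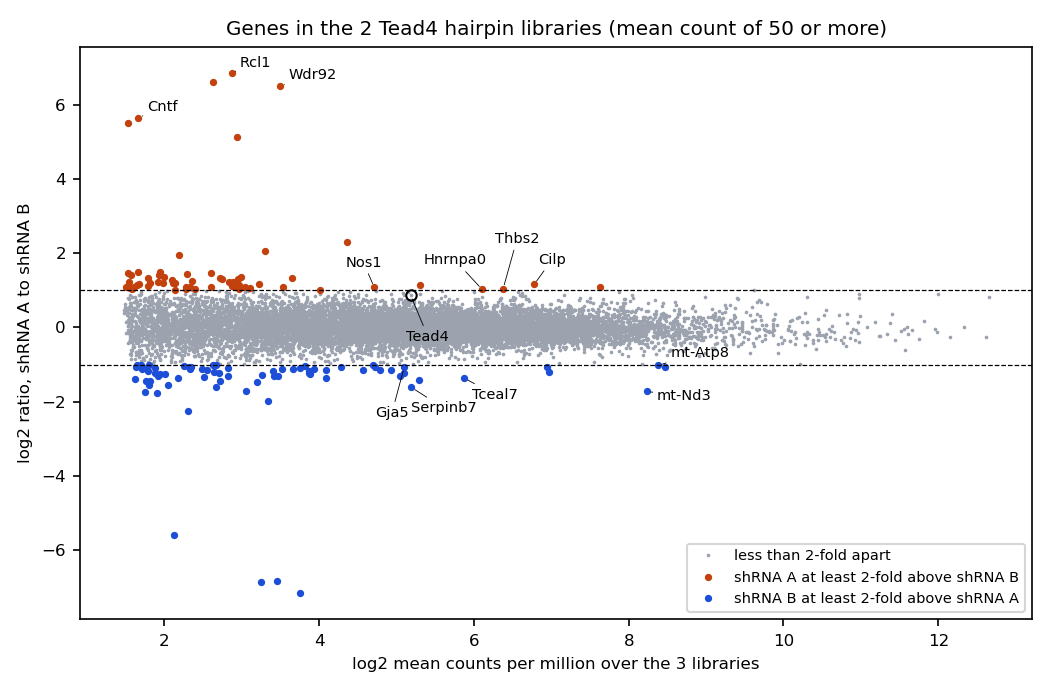
Each point is 1 of the 12015 genes; the horizontal axis is the log2 mean CPM over the 3 libraries and the vertical axis the log2 ratio of shRNA A to shRNA B, with dashed lines at 2-fold. Orange points are the 61 genes at least 2-fold higher with shRNA A, blue points the 74 higher with shRNA B, and genes at 0 reads in a hairpin library are drawn against a floor of 3 counts. The open circle is Tead4, at 0.87.

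Among protein-coding genes 2-fold higher with shRNA A, the 2 with the most reads, Cilp and Thbs2, coded for extracellular matrix, the scaffold of collagens and glycoproteins that cells secrete. Groupings by function, and the choice of members to describe from them, were made after the values were seen. Of the 61 genes, 7 coded for matrix, matrix receptors or secreted proteases. Function groups were given only to genes 2-fold apart. No share over all genes therefore stands beside this count or those of the groups below, on either side. Cilp, a matrix protein of cartilage and fibrous tissue, had 370 reads in the control library, 4259 under shRNA A and 1498 under shRNA B. That is 23.1, 211 and 94.8 CPM, a log2 ratio of A to B of 1.15 (1.07 to 1.24), and both hairpin libraries were above the control library. Thbs2, the matrix protein thrombospondin 2, had 63.1 CPM in the control library, 125 under shRNA A and 61.0 under shRNA B (1.04, 0.93 to 1.15). Col16a1, a fibril-associated collagen, had 3.56, 14.6 and 5.76 CPM (1.34, 1.0 to 1.70). Emilin1, a glycoprotein of elastic fibres, had 7.44, 18.5 and 8.80 CPM (1.08, 0.79 to 1.37). For Thbs2 and Emilin1 the control library stood near shRNA B. The same held for Itga11, a subunit of a collagen-binding integrin, at 5.25, 11.8 and 5.51 CPM, and for the secreted protease Adamts16 at 4.50, 12 and 5.57 CPM. Pappa2, a protease that cleaves binding proteins of insulin-like growth factor, was different: it had 10.9 CPM in the control library, 7.88 under shRNA A and 3.36 under shRNA B.

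The same side held smaller sets from unlike pathways. A further 7 of the 61 genes coded for ion channels and for neural adhesion or signalling. This group also held 4 of the 74 genes higher with shRNA B, namely Pclo, Dbh, Atp1b2 and Gja5. Nos1, the neuronal nitric oxide synthase that sits on the dystrophin complex in muscle, had 24.4 CPM in the control library, 36.8 under shRNA A and 17.5 under shRNA B (log2 ratio 1.08, 0.87 to 1.28). The control level lay between the hairpins there, as it did for the potassium channel Kcnh2 (3.19, 6.30 and 2.47 CPM), the acid-sensing channel Accn2 (4.50, 7.44 and 2.72 CPM) and the teneurin Odz4 (3.19, 4.61 and 1.65 CPM). The neuropeptide Y receptor Npy1r differed in that both hairpins were above the control library, at 13.8 and 6.27 against 3.31 CPM. DNA replication, repair or centromeres were served by 5 genes, namely Fancg, Mcm8, Polg2, Cenpp and Dctd, with log2 ratios from 1.03 (Dctd) to 1.29 (Fancg). Another 5 were cytokine or immune genes. Csf2rb2, a receptor chain for interleukin 3, had 1.0 CPM in the control library, 8.33 under shRNA A and 3.67 under shRNA B, while Socs1, an inhibitor of cytokine signalling, had 2.0, 5.26 and 2.34 CPM. The others were the interleukin 1 receptor antagonist Il1rn, the interferon-inducible Ifitm7 and the histocompatibility gene H2-gs10. Hnrnpa0, which binds RNA, had 52.7, 103 and 50.8 CPM (1.02, 0.90 to 1.14). Plxdc1 had the largest ratio of any named gene with reads in every library (2.44, 6.74 and 2.41 CPM; 1.49, 0.96 to 2.05).

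The rest of the 61 comprised 4 metabolic genes (an Spr entry, Aoc3 and Car9 among them), 3 transcription or RNA-binding factors besides Hnrnpa0 (Atoh8, Glis3 and Rbm15b), 17 predicted or clone entries and 12 genes without a group. This Spr entry, which the later annotation lacks, had 43, 88 and 25 reads. Another entry named Spr, which that annotation holds, had 531, 594 and 492 reads and was level between the hairpins (-0.08, -0.26 to 0.09). The hypoxia-induced carbonic anhydrase Car9 was at 9.12, 7.59 and 3.04 CPM. Hspa1b, an inducible heat shock protein, had 6.12, 28.1 and 13.9 CPM (1.01, 0.79 to 1.24). Its near-identical copy Hspa1a had 7.00, 30.4 and 19.9 CPM (0.61, 0.41 to 0.81), and how reads were divided between the copies is not given in the sources used here.

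**Figure D2:**
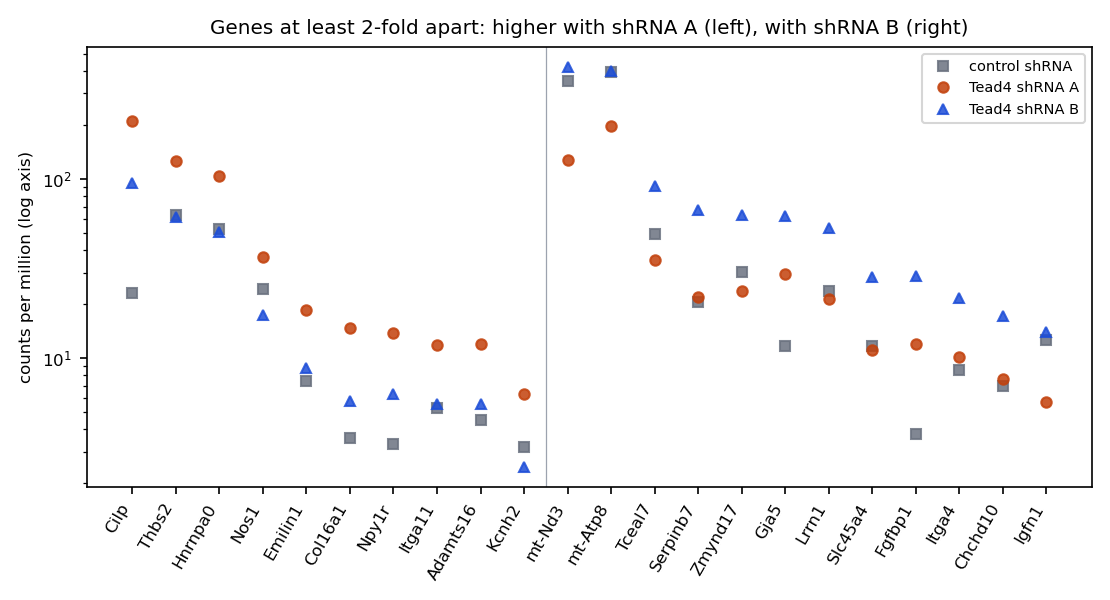
CPM on a log axis with control shRNA (squares), shRNA A (circles) and shRNA B (triangles), 1 library each, for 22 genes at least 2-fold apart. Left of the line shRNA A is higher, with Cilp at 211 against 94.8 CPM; right of the line shRNA B is higher, with mt-Nd3 at 127 against 421 CPM.

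Most collagens that were less than 2-fold apart were also higher with shRNA A. Of 18 collagens with a ratio, 17 were higher with shRNA A. Of the 18, 13 (72.2%) were at least 1.5-fold higher with shRNA A, against 4.43% of all genes, and none with shRNA B. Among all genes 6013 were above 0 and 6002 below. The collagen median was 0.70, beside 0.00 for all genes. Col3a1, the fibrillar collagen with the most reads, had 25398 reads in the control library, 57094 under shRNA A and 25938 under shRNA B, that is 1587, 2831 and 1642 CPM (0.79, 0.76 to 0.81). Its level with shRNA B was close to that of the control library, and Col5a1 behaved alike at 406, 710 and 402 CPM. Col1a1, a chain of type I collagen, had 120 CPM in the control library, 109 under shRNA A and 59.8 under shRNA B, so here shRNA A was close to the control library. The basement membrane collagen Col4a1 had 121, 308 and 182 CPM. Only 3 collagens were level between the hairpins: Col18a1 (0.03, -0.10 to 0.15), Col25a1 (0.02, -0.45 to 0.50) and Col4a5 (-0.05, -0.29 to 0.19). Apart from Col16a1 the collagens were named after their values were seen. Median log2 ratios of the collagens to the control library were 0.84 under shRNA A and 0.21 under shRNA B.

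**Figure D3:**
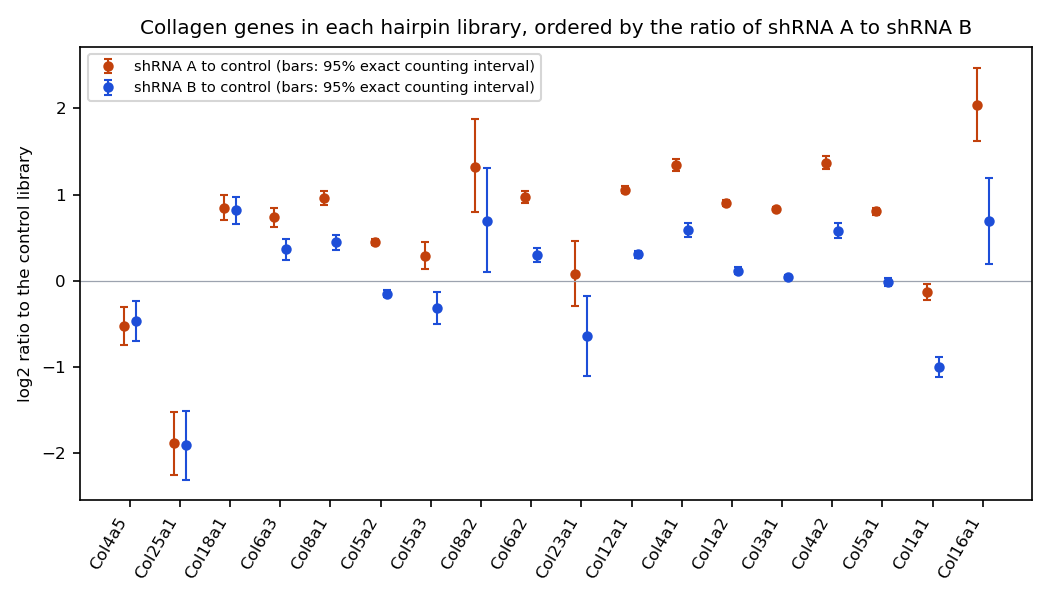
Log2 ratio to the control library of the 18 collagens in the shRNA A (orange) and shRNA B (blue) libraries, with 95% exact counting intervals, ordered by the ratio of A to B. The orange point is the higher in all but Col4a5, and the gap widens from Col4a5 at the left to Col16a1 at the right.

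The medians of the matrix glycoprotein and matrix protease lists were also above 0. Of 41 matrix glycoproteins and proteoglycans, 37 were higher with shRNA A (median 0.50), and 13 by at least 1.5-fold (31.7%, against 4.43% of all genes). Fn1, fibronectin, had 100349 reads in the control library, 167849 under shRNA A and 74538 under shRNA B, that is 6270, 8323 and 4719 CPM (0.82, 0.81 to 0.83), with the control library between the hairpins. Thbs1, a thrombospondin and a known target of YAP and TEAD, had 2028, 6650 and 3584 CPM (0.89, 0.88 to 0.91), with both hairpins above the control library. The other 4 were higher with shRNA B, and Aspn, a small leucine-rich proteoglycan, was the only one of them at least 1.5-fold apart, at 5.25, 4.96 and 8.04 CPM (-0.70, -1.09 to -0.31). List members less than 2-fold apart that are given from here on were chosen after their values were seen. The exceptions were Acta1, Acta2, Ankrd1, Atp5a1, Atp5b, B2m, Ifi27l1, Mmp2, Myh1, Myog, Rrm2 and Timp2. Of 28 matrix proteases and their inhibitors, 25 were higher with shRNA A (median 0.46). The 2 with the most reads, Timp2 and Mmp2, stood at 0.15 and 0.74. Mmp14, a membrane-bound collagenase, had 376, 1264 and 785 CPM (0.69, 0.66 to 0.72), and Timp1, an inhibitor of such proteases, had 80.7, 118 and 162 CPM (-0.45, -0.53 to -0.37). Integrins and laminins were split: 11 of 19 were higher with shRNA A, with Itga11 at 1.09 and Itga4, a subunit of the receptor for fibronectin and VCAM1, at -1.10. Among 26 genes listed as targets of YAP and TEAD, 19 were higher with shRNA A (median 0.34). By at least 1.5-fold 3 were (11.5%, against 4.43% of all genes), namely Crim1 (0.94), Ptpn14 (0.75) and F3 (0.59). The other 7 were higher with shRNA B, none by at least 1.5-fold, and included Ankrd1 at -0.45 (-0.48 to -0.42). Of 17 smooth muscle contractile genes 15 were higher with shRNA A (median 0.32), with Acta2 at 1545, 3673 and 2877 CPM. For guidance genes (semaphorins, ephrins and their receptors) it was 35 of 41, with a median of 0.32.

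Among protein-coding genes at least 2-fold higher with shRNA B, the 2 with the most reads were transcribed from mitochondrial DNA. The mitochondrial genome codes for subunits of the respiratory chain and of ATP synthase, which work together with subunits coded in the nucleus. mt-Nd3, a subunit of complex I, had 5639 reads in the control library, 2567 under shRNA A and 6653 under shRNA B, that is 352, 127 and 421 CPM (-1.73, -1.79 to -1.66). mt-Atp8, a subunit of ATP synthase, had 397, 198 and 402 CPM (-1.03, -1.08 to -0.97). After adjustment for GC content and length the ratios were -1.35 for mt-Nd3 and -0.65 for mt-Atp8, the latter less than 2-fold. For both the shRNA A library stood apart and the control library lay near shRNA B. Not all mitochondrial transcripts did so, since mt-Co1 had 3930 CPM in the control library, 5750 under shRNA A and 5736 under shRNA B (0.00, -0.01 to 0.02). Of the 14 mitochondrially encoded entries, 13 were higher with shRNA B, with a median of -0.32. Of the 14, 4 (28.6%) were at least 1.5-fold higher with shRNA B, against 4.01% of all genes. Of 54 nuclear genes for respiratory chain subunits, 50 were higher with shRNA B (median -0.30). Of the 54, 7 (13.0%) were at least 1.5-fold higher with shRNA B, against 4.01% of all genes, and none with shRNA A. The 2 of these nuclear genes with the most reads, Atp5b and Atp5a1, stood at -0.25 and -0.10. Ndufa5 of complex I had 40.2, 27.1 and 44.0 CPM (-0.70, -0.86 to -0.53), and Cox7c of complex IV had 39.0, 29.5 and 46.1 CPM (-0.64, -0.80 to -0.49). Nuclear genes for mitochondrial proteins 2-fold higher with shRNA B included Chchd10, a protein of the intermembrane space, at 6.94, 7.64 and 17.2 CPM, and Usmg5, a small subunit of ATP synthase, at 16.2, 9.37 and 20.2 CPM. Polg2, an accessory subunit of the mitochondrial DNA polymerase, was on the other side at 4.75, 4.61 and 1.96 CPM (1.23, 0.63 to 1.87).

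Most lists of muscle structural genes lay on the shRNA B side. Of the 74 genes, 4 are known for muscle. Zmynd17, also called Mss51, had 483 reads in the control library, 478 under shRNA A and 999 under shRNA B, that is 30.2, 23.7 and 63.2 CPM (-1.42, -1.58 to -1.26). The insulin-responsive glucose carrier Slc2a4 (GLUT4) had 9.37, 2.18 and 5.51 CPM (-1.34, -1.89 to -0.80), below the control level with both hairpins. Igfn1, which binds sarcomeric proteins, had 12.6, 5.65 and 13.9 CPM, and Tecrl had 12.3, 6.05 and 14.9 CPM, so that for both the shRNA B and control libraries were close. Of 16 troponins, actins and tropomyosins of striated muscle, 15 were higher with shRNA B (median -0.33). Of 38 proteins of the Z-disc and M-band, 31 were (median -0.22), 9 by at least 1.5-fold (23.7%, against 4.01% of all genes). Of 28 genes for calcium release and excitation, 21 were (median -0.24). Myl1, a fast myosin light chain, had 29327 reads in the control library, 11658 under shRNA A and 18151 under shRNA B (-0.99, -1.02 to -0.96). Acta1 stood at -0.27 (-0.28 to -0.26) and Tnnt3, a fast troponin T, at -0.36 (-0.39 to -0.32). Of 9 myosin heavy chains, 8 were higher with shRNA A (median 0.15), but the median after adjustment for GC content and length was -0.02. Myh7, the slow heavy chain, had 290 CPM in the control library, 195 under shRNA A and 123 under shRNA B (0.67, 0.59 to 0.75), while Myh1, a fast adult chain, was at -0.06 (-0.07 to -0.04). Myog, the myogenic factor myogenin, had 917, 307 and 364 CPM (-0.25, -0.30 to -0.19), and the 26 myogenic regulatory factors had a median of 0.02. Over the 12 myotube markers, median log2 ratios to the control library were -0.95 under shRNA A and -0.50 under shRNA B.

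**Figure D4:**
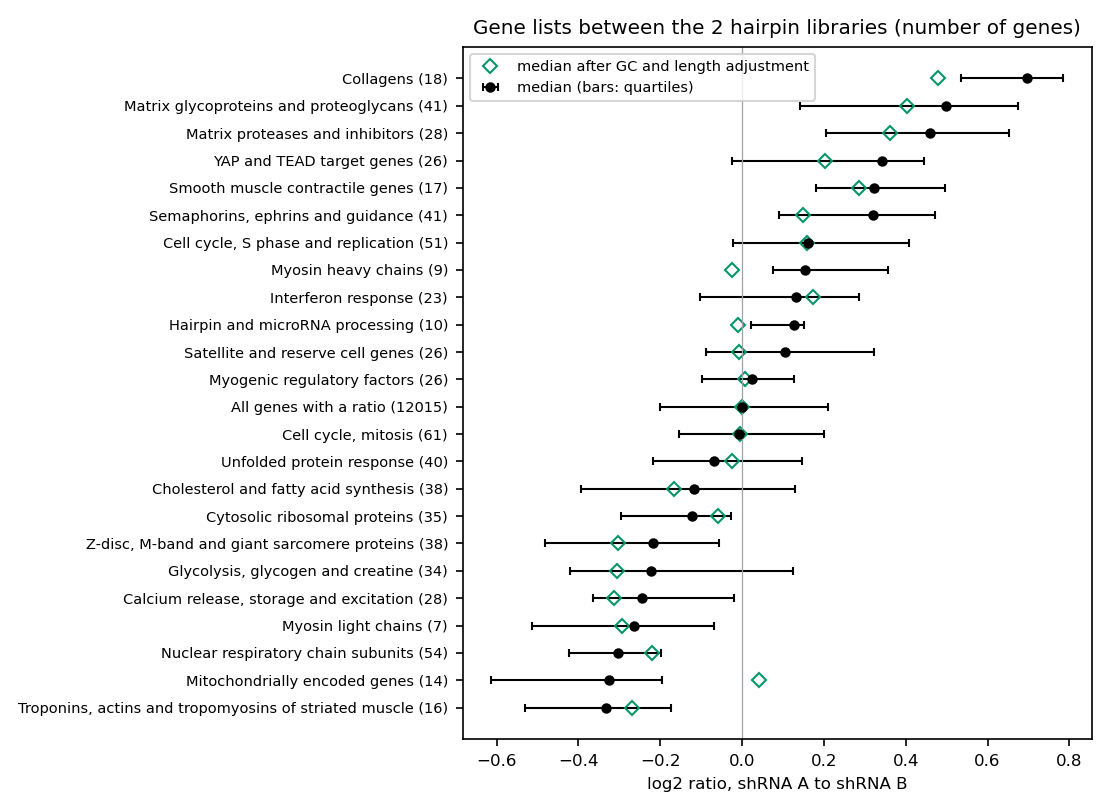
Median log2 ratio of shRNA A to shRNA B (black points) with the quartiles of the members (bars) for 23 gene lists and for all genes, with the number of genes in brackets. Collagens lie furthest to the right at 0.70 and troponins, actins and tropomyosins furthest to the left at -0.33; green diamonds give the median after adjustment for GC content and transcript length, which moves the mitochondrially encoded genes from -0.32 to 0.04.

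Serpins and granule or lysosomal proteases accounted for 5 of the 74 genes 2-fold higher with shRNA B. Serpinb7, an intracellular protease inhibitor, had 329 reads in the control library, 442 under shRNA A and 1061 under shRNA B, that is 20.6, 21.9 and 67.2 CPM (-1.62, -1.78 to -1.45). Only the shRNA B library was high there. Serpinb9f had 8.37, 0.397 and 1.33 CPM and the lysosomal protease Ctsc 7.25, 0.793 and 2.15 CPM, so both were ratios between residual levels. Mcpt8, a protease of mast cells and basophils, had 7.31, 2.93 and 8.86 CPM, and Serpinb1b had 5.50, 4.46 and 9.05 CPM. Gja5, the gap junction protein connexin 40, had 187 reads in the control library, 596 under shRNA A and 974 under shRNA B, that is 11.7, 29.6 and 61.7 CPM (-1.06, -1.21 to -0.91). Fgfbp1, a secreted carrier of fibroblast growth factors, was likewise above the control level with both hairpins, at 3.75, 12 and 28.6 CPM (-1.25, -1.48 to -1.02). Levels with shRNA A were near or below the control level, and those with shRNA B well above it, for Serpinb7 and several other genes. Among them were Lrrn1 (23.8, 21.4 and 53.4 CPM), the sugar carrier Slc45a4 (11.7, 11.1 and 28.4 CPM), Itga4 (8.62, 10.1 and 21.7 CPM) and Tceal7 (49.1, 35.4 and 91.0 CPM). Lrrn1, Fgfbp1 and Itga4 are cell surface or secreted proteins. The rest of the 74 included the metabolic enzymes As3mt, Akr1b7 and Hsd17b13, the neural or membrane genes Pclo, Dbh and Atp1b2, the transcription factors Hsf4 and Isx, the amino acid carrier Slc7a7 and the phagocyte oxidase subunit Ncf1, with log2 ratios from -1.56 (Hsd17b13) to -1.0 (Slc7a7). A further 31 were predicted, clone or small-RNA entries, and 15 had no group.

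Stress genes that were far below the control level in both hairpin libraries added 2 members. Fgf21, a hormone made under metabolic stress, had 826 reads in the control library, 44 under shRNA A and 72 under shRNA B (-1.06, -1.64 to -0.50). Cth, an enzyme that makes cysteine, had 197, 7 and 14 reads (-1.35), and its interval of -2.90 to 0.05 included no change. The medians of the lists around them were nearly level between the hairpins. For 40 genes of the unfolded protein response the median was -0.07 between the hairpins, beside medians of -1.83 and -1.76 for shRNA A and shRNA B against the control library. For 42 genes of amino acid metabolism under the stress factor ATF4 it was -0.03, beside -1.53 and -1.42. Of these 42, 5 (11.9%) were at least 1.5-fold higher with shRNA B, against 4.01% of all genes. Another 2 (4.76%) were that much higher with shRNA A, against 4.43%. For 61 mitosis genes the median was -0.01, with 30 higher with shRNA A and 31 under shRNA B, beside 1.99 and 2.03. The 2 ratios to the control library share that library. Replication genes were less even, with 36 of 51 higher with shRNA A (median 0.16) and Mcm5, a subunit of the replicative helicase, at 4.31, 20.1 and 10.3 CPM (0.96, 0.70 to 1.24). Rrm2, with more reads, had 63.2, 108 and 117 CPM (-0.11, -0.20 to -0.02). Of 23 interferon response genes with a ratio, from 55 listed, 15 were higher with shRNA A (median 0.13). At least 1.5-fold higher with shRNA A were 2 (8.70%), against 4.43% of all genes. The guanylate-binding protein Gbp4 alone (4.35%, against 4.01% of all genes) was that much higher with shRNA B (-0.75, -1.04 to -0.46). The 2 interferon response genes with the most reads, B2m and Ifi27l1, stood at -0.10 and -0.26. Of 10 genes that process hairpins and microRNAs none was 1.5-fold apart, with a median of 0.13 (-0.01 after adjustment for GC content and length).

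The genes 2-fold higher with shRNA B included short and repeated transcripts. Pseudogenes, copies of genes that no longer code for the protein, made up 18 of the 74 (24.3%), against 4 of the 61 higher with shRNA A and 7.89% of all genes with a ratio. Of the 18, 4 carry names of ribosomal protein copies in a later annotation. AC123870.3, a copy of Rpl39, had 163, 64.4 and 149 CPM (-1.21, -1.31 to -1.11). Gm4802, a copy of Rps27a, had 148, 71.3 and 150 CPM (-1.07, -1.17 to -0.97). For both the shRNA A library was the low one. AC163327.1, listed later as the noncoding RNA Gas5, had 230 reads in the control library, 65 under shRNA A and 200 under shRNA B (-1.97, -2.40 to -1.56). A small-RNA entry labelled mmu-mir-703 had 389, 217 and 458 CPM, and another, AC151602.1, lay on the other side at 128, 316 and 148 CPM (1.09, 1.02 to 1.16). Among 215 genes with transcripts under 400 bases, 13 were 2-fold higher with shRNA B and 3 under shRNA A. Over all genes with a ratio these shares were 0.616% and 0.508%. AC159210.1, a copy of the heat shock gene Hspb1, had 255 reads in the control library, 768 under shRNA A and 122 under shRNA B, whereas Hspb1 had 1980, 2999 and 2687. Reads that fit a gene and its copy equally cannot be assigned from these counts. All entries in this paragraph were named after their values were seen.

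The largest ratios came from 9 entries at 0 reads in 1 hairpin library. No read fell on 5 of them with shRNA B. Rcl1, a protein of ribosomal RNA processing, had 442 reads with shRNA A and 0 in both other libraries. With the shRNA B library set to the floor of 3 counts, that is 115-fold higher with shRNA A. Cntf, a neurotrophic cytokine whose entry overlaps Zfp91, had 192 reads with shRNA A and 0 in both others. Wdr92, a WD-repeat protein, had 265 reads in the control library, 349 under shRNA A and 0 under shRNA B, and its entry overlaps Ppp3r1 and Pno1. No read fell on 4 of them with shRNA A. The small-RNA entry AL928935.3 had 306, 0 and 335 reads, while the entry of a pseudogene that overlaps it had 51, 427 and 81, and the 2 together had 357, 427 and 416. The others on that side were 8430410A17Rik (255, 0 and 266 reads), AC155937.1 (183, 0 and 271) and AC134827.1 (95, 0 and 113), the last of which overlaps Ccni. The part that the assignment of reads between overlapping entries had in these zeros was not tested. Beyond Rcl1, Wdr92 and Cntf, these entries were named after their values were seen.

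For most genes 2-fold apart, the control library stood nearer shRNA B than shRNA A. Among the 61 genes higher with shRNA A its level was nearer shRNA B for 41 and nearer shRNA A for 20. It lay between the hairpins for 31, below both for 21 and above both for 9. Median log2 ratios to the control library were 0.99 under shRNA A and -0.29 under shRNA B. Among the 74 higher with shRNA B it was nearer shRNA B for 53 and nearer shRNA A for 21. It lay between the hairpins for 40, above both for 25 and below both for 9, with medians of -1.09 for shRNA A and 0.20 for shRNA B. Only 2 genes stood at least 2-fold on opposite sides of the control level, AC159210.1 and the predicted gene AL837506.2 (77 reads in the control library, 358 under shRNA A and 8 under shRNA B). These counts describe genes chosen by the hairpin ratio itself. The same counts over all genes were not made, so whether the control library stood nearer shRNA B for genes in general is not shown here.

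Base composition and length moved with the ratio. Across 11693 genes with values, Spearman's rho between the log2 ratio and transcript GC content was 0.318, and with transcript length it was 0.260. Genes are not independent replicates, and all share the same 2 libraries. In the lowest GC decile (31.0 to 41.4% GC) the median log2 ratio was -0.19 and in the highest (57.7 to 73.7%) it was 0.18. It was the shRNA A library that carried the trend, as its median ratio to the control library went from -0.19 to 0.13 over these deciles, that of shRNA B from -0.01 to -0.04. By length, medians went from -0.17 in the shortest decile to 0.15 in the longest. Genes 2-fold higher with shRNA A had a median GC content of 54.5% and those higher with shRNA B 46.8%, beside 49.7% for all, and median lengths were 3139.5, 1856.5 and 3296 bases. After the decile medians of both properties were subtracted, the list medians were 0.48 for collagens, 0.40 for matrix glycoproteins, 0.36 for matrix proteases and 0.20 for targets of YAP and TEAD. They were -0.27 for troponins and actins, -0.30 for Z-disc genes and -0.22 for nuclear respiratory chain genes. The mitochondrially encoded genes, with a median GC content of 37.1%, went from -0.32 to 0.04, and guidance genes from 0.32 to 0.15. For Tead4 the adjusted ratio was 0.71. What part the preparation of the libraries had in this trend was not tested.

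**Figure D5:**
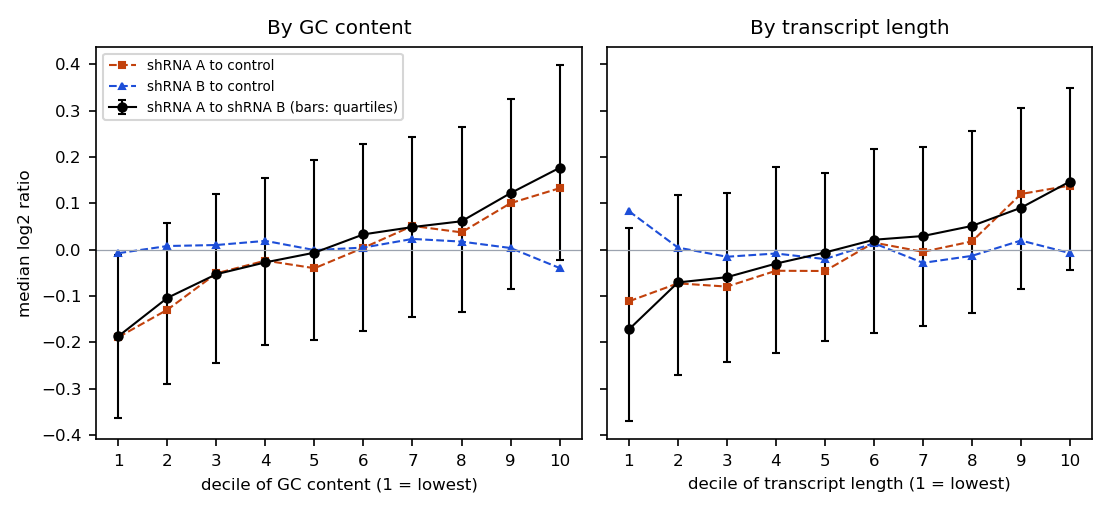
Median log2 ratios by decile of transcript GC content (left) and length (right), about 1170 genes per decile: shRNA A to shRNA B (black, bars are quartiles), shRNA A to control (orange) and shRNA B to control (blue). The black line climbs from -0.19 to 0.18 with GC content and the orange line follows it, while the blue line in the left panel stays between -0.04 and 0.03.

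Promoters of the genes 2-fold apart were searched for CATTCC, the core of the M-CAT element that TEAD factors bind, on both strands. The windows were RefSeq promoters (GRCm38.p6) from 250 bases before to 50 bases after each annotated start. Windows were found for 38 of the 74 genes higher with shRNA B, and 13 of their 46 windows (28.3%) held the core. They were found for 40 of the 61 genes higher with shRNA A, and 4 of 47 windows (8.51%) held it. Over all genes with a ratio the share was 11.9% of 11017 windows, and over the whole RefSeq set 14.7% of 32851. These shares were not tested, several windows can belong to 1 gene, and a match of these letters is not a binding site. Of these, 5 windows are printed to show where the core lies in genes 2-fold apart, 4 higher with shRNA B and 1 under shRNA A. Each is the 250 bases before the start, 5′ to 3′ on the gene's strand, with the core or its reverse complement GGAATG in capitals.
Tceal7, chrX:136223791-136224040, plus strand: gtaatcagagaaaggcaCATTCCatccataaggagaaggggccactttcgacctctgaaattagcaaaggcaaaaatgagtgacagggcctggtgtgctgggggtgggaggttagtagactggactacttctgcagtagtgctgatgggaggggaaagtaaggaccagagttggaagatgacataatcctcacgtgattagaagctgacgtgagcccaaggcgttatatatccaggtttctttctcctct
Cmbl, chr15:31568583-31568832, plus strand: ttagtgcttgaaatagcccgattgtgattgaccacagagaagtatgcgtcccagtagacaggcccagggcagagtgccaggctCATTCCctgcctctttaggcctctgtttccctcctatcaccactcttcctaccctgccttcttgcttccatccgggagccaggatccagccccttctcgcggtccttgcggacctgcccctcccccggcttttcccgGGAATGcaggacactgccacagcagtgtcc
Mcpt8, chr14:56085198-56085447, minus strand: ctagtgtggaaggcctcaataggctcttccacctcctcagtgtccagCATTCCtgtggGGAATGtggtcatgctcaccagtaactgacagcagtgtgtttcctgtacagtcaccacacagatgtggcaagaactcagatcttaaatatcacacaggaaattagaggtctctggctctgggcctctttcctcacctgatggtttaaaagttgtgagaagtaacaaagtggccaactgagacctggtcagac
Prr32 (1110059M19Rik in the table), chrX:45090654-45090903, plus strand: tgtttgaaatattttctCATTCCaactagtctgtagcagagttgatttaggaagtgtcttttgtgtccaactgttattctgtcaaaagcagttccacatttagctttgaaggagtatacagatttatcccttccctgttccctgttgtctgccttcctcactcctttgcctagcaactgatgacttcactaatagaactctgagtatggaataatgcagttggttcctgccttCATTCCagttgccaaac
Il1rn, chr2:24345121-24345370, plus strand: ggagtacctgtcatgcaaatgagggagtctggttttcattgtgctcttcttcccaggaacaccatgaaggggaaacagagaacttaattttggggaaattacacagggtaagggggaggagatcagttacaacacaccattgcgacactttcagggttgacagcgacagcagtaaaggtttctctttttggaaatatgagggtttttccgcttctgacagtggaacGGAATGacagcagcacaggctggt

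Tceal7, a member of a family related to elongation factor A that is known from muscle differentiation, has 1 copy that begins 233 bases before its start. Cmbl, a hydrolase, has copies beginning at 167 and 30 bases before the start, and its levels were 28.0 CPM in the control library, 13.5 under shRNA A and 29.6 under shRNA B (-1.14, -1.36 to -0.92). Mcpt8 has its pair at 203 and 192 bases, on opposite strands. The predicted protein gene 1110059M19Rik has copies at 233 and 17 bases, and had 25.2, 7.98 and 17.7 CPM (-1.15, -1.43 to -0.86). Il1rn, the antagonist of the interleukin 1 receptor, has 1 copy at 24 bases, and had 4.81, 7.44 and 3.61 CPM (1.04, 0.59 to 1.51). For Cmbl and Mcpt8 the shRNA A library was the low one, for Tceal7 the shRNA B library was the high one, and 1110059M19Rik was below the control level with both hairpins.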

How the data were processed

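RNA of 3 C2C12 populations was sequenced as single-end poly(A) libraries with a kit that does not mark strand, per the labels' protocols. The authors deposited 1 table with raw counts of reads for each Ensembl gene. Beside it stood normalized values, deposited as a score with no unit: the count times 1 factor per library (1.0, 0.801 and 1.02). TopHat 1.0.12, Cufflinks 0.8.2, DESeq and mm9 are named in the submitters' processing notes, with no role. The read counter is not given in the sources used here, nor how multiply mapped reads were handled.

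Counts were scaled with TMM factors (0.975, 1.01 and 1.01 for control, shRNA A and shRNA B) in edgeR 4.0.16 under R 4.3.3, on genes averaging at least 50 reads. Log2 ratios of shRNA A to shRNA B carry 95% exact Clopper-Pearson intervals from SciPy 1.17.1. A library at 0 was set to 3 counts, and no ratio was given where both hairpin libraries had 3 or fewer. Intervals cover counting error only, since PCR copies of 1 molecule are counted as separate reads. With 1 library per hairpin there was no test. The ratio calculation was checked on simulated counts.

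GC content, transcript length, gene type and overlap came from GENCODE M21 (18701 identifiers matched), a later build, so no coordinates of it are given. Members and gene lists were chosen with earlier results of these data known. Named genes were the TEAD factors, the 20 largest and 20 smallest ratios, the 2-fold members of each list or else its 2 members with most reads, and the 2-fold genes of highest level. Predicted genes were only counted by that rule. Not every gene under the rule is given above, and several lists are illustrated by members with larger ratios. Function groups, and genes named outside this rule, were chosen after the values were seen. Alternatives were other scalings, count minimums, the deposited normalized values, GC and length adjustment, protein-coding genes alone and intervals wholly past 2-fold. A few genes are not reported here.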

Additional observations from a re-analysis of the deposited data

How the results depend on the processing

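The counts of 61 and 74 genes at least 2-fold higher with shRNA A and shRNA B depended on the read minimum. A mean of 10 reads gave 265 and 287, no minimum 713 and 758, and a mean of 200 reads 11 and 27. At 200 reads the share higher with shRNA A was 28.9%, against 45.2% at 50. Requiring the interval to lie wholly past 2-fold gave 14 and 20. Adjustment for GC content and length, chosen after seeing the data, gave 40 and 54, and protein-coding genes with a read in both libraries, also added later, 44 and 48. Total-count, RLE and upper-quartile scaling gave 61 to 65 and 72 to 75, a minimum over the hairpin libraries alone 66 and 68, and the deposited normalized values 61 and 69. All 110 named genes stayed within their intervals under the 3 scalings. This could hardly come out otherwise, since the factors of the 2 hairpin libraries were nearly equal under each (1.009 and 1.013 under RLE). Under the GC and length adjustment 60 of 105 left their intervals. None changed sign among those 2-fold apart. Of 48 list medians, the GC and length adjustment moved 4 outside the quartiles and turned the sign of 7, RLE scaling turned 1, a minimum of 10 reads 1 and a minimum of 200 reads 3. Depth limits the genes of few reads: at 50 to 100 reads an interval spans 0.98 on the log2 scale. No paired analysis was possible because each group is 1 library. No replicate could be left out for the same reason.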
